A study of Mus musculus with 4 samples.

Results

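The 9 genes Tbr1, Fezf2, Bcl11a, Bcl11b, Sox5, Nfia, Nfib, Pou3f2 and Pou3f3 encode transcription factors of the developing cerebral cortex. All 9 are grouped here as layer fate factors, although Nfia and Nfib are known for moving progenitors on to differentiation and gliogenesis. The 9 genes were taken by gene name from the deposited tables, where all 9 were present in both tables among 19150 shared genes. The libraries came from brains of C57BL/6 mouse embryos at E13.5 (embryonic day), 2 of macroH2A knockout embryos (KO2 and KO4) and 2 of wild-type embryos (WT6 and WT8), and KO2 was deposited in 1 table with WT6 and KO4 in the other with WT8. The series title gives macroH2A, a histone H2A variant with a large extra domain, as the deleted protein. The labels name neither the targeted gene nor the allele, the sex or the litter.

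Cortical neurons are born in sequence from progenitors that line the ventricle, and neurons of the deep layers come before those of the upper layers. The identity of a deep-layer neuron is held by factors that act partly by repressing one another. Tbr1 is needed for corticothalamic neurons of layer VI and represses Fezf2 there, whereas Fezf2 drives the subcerebral projection neurons of layer V, in which Bcl11b (CTIP2) acts downstream. Sox5 times the birth order of these deep classes, and Bcl11a (CTIP1) takes part in the choice among deep-layer projection neurons. The nuclear factor I proteins Nfia and Nfib move progenitors on to differentiation and gliogenesis, and the POU factors Pou3f2 (BRN2) and Pou3f3 (BRN1) are needed together for upper-layer neurons and their migration. Bcl11a, Bcl11b, the NFI genes and the POU genes are also used outside the cortex, Bcl11b in striatal neurons among others.

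Depth lay between 16470090 and 18136745 reads per library, so that each of the 9 genes had at least 1301 reads in every library. H2afy, the gene of macroH2A1, checked the labels with counts of 1368 (KO2) and 1267 (KO4) for the knockouts and 5538 (WT6) and 5593 (WT8) for the wild types, a log2 fold change of -2.22 (SE 0.10, adjusted p = 0.00167 by the quasi-likelihood test of edgeR), while H2afy2, the gene of macroH2A2, stood at 0.08 (adjusted p = 0.799). Without WT6 the fit called 0 genes, H2afy included. Of 10 markers of midbrain and hindbrain, En1, En2, Pax5, Pax7, Hoxa2, Hoxb2 and Hoxb3 are not among the genes shared by both tables, and Pax2 had 1 to 5 reads per library. Otx2 had 154 reads in KO2 and 55 in KO4, whereas WT6 had 27 and WT8 had 145, and Gbx2 had 58 in KO2 and 73 in KO4, whereas WT6 had 25 and WT8 had 81. The median of WT6 over WT8 for Otx2 and Gbx2 was -2.09 on the log2 scale, and its part in the results was not tested. All 12 genes listed for ventral forebrain were also lower in WT6 than in WT8 (median -0.78). Otx2 and Gbx2 alone do not tell midbrain or hindbrain from forebrain. Forebrain markers were abundant: Neurod6 of cortical neurons had 530.1 to 839.5 CPM (the read count scaled to library size with TMM factors) and Dlx1 of ventral forebrain neurons had 269.6 to 423.6 CPM.

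For none of the 9 factors did a difference between knockout and wild-type brains pass the test. The edgeR test, adjusted over 15708 genes, called 0 of the 9, where it called 0% of all genes higher and 0.00637% lower in KO, which is H2afy alone. At an unadjusted p under 0.05 the edgeR count was 0 of 9 as well, against 738 of all genes, and DESeq2 and limma-voom also called 0 of the 9. Log2 fold changes of KO over WT lay between -0.23 for Fezf2 and 0.16 for Pou3f3, with a median of 0.00 over the 9 genes and -0.01 over all genes tested. In place of a common shift between the genotypes, the 9 genes shared a difference between the wild-type libraries. All 9 had more CPM in WT6 than in WT8, by a median of 0.22 on the log2 scale, where the median over all tested genes was 0.01. In bulk tissue, fewer cells of a type and less RNA per cell cannot be told apart.

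**Figure D1:**
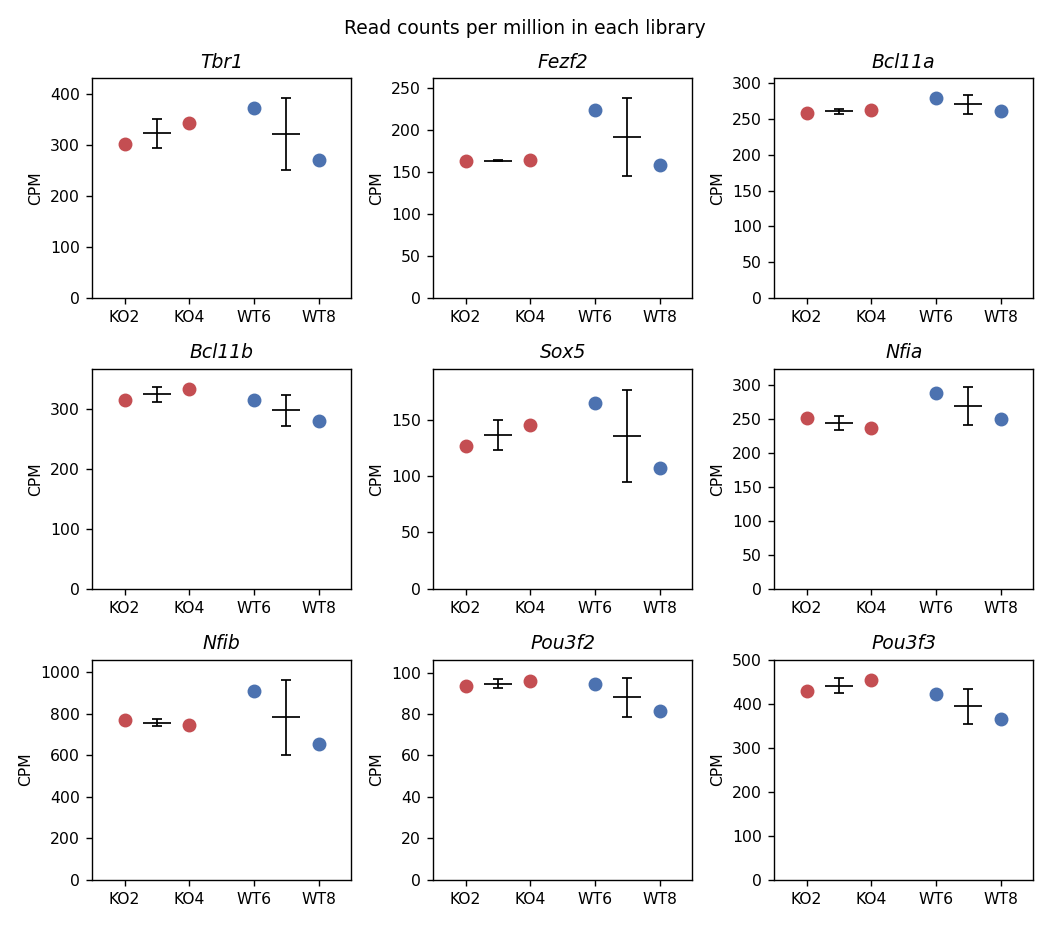
CPM (read count scaled to library size, linear axis from 0) of each gene in the knockout libraries KO2 and KO4 (red) and the wild-type libraries WT6 and WT8 (blue), with the mean and SD of each genotype in black (n = 2 each). WT6 was the highest library for 6 of the 9 genes and WT8 the lowest for 7 of 9, where 23% of all tested genes had WT6 highest and 34% had WT8 lowest. Both KO libraries lay between the WT libraries for 4 of the 9.

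Tbr1, the T-box factor of layer VI, lies on the plus strand of chromosome 2 (61802930 to 61814114 on GRCm38, identifier ENSMUSG00000035033) and is a gene of 8 exon blocks. It had 302.7 CPM in KO2 and 342.8 in KO4, whereas WT6 had 371.9 and WT8 had 271.5. Both KO values lay inside the interval spanned by the WT libraries. The mean was 322.8 ± 28.4 CPM in KO and 321.7 ± 71.0 CPM in WT (SD, n = 2 each), and the log2 fold change was 0.00 (95% interval -0.37 to 0.38, edgeR adjusted p = 0.994).

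Sox5, the SoxD factor that times deep-layer birth order, spans 953553 bases of the minus strand of chromosome 6 (143828425 to 144781977) and followed the same pattern more widely. Its values were 126.8 CPM in KO2 and 145.7 in KO4, whereas WT6 had 164.6 and WT8 had 107.0. WT6 therefore held 1.54 times the level of WT8, the largest ratio between WT libraries among the 9 genes. The genotype means were almost equal, at 136.3 ± 13.4 CPM in KO and 135.8 ± 40.8 CPM in WT, with a log2 interval from -0.46 to 0.47 (edgeR adjusted p = 0.995). Sox5os1, an antisense RNA gene in GENCODE M21, covers 1330 bases of Sox5 exons, and 8.98% of the 50-base words of Sox5 transcripts also occur in transcripts of other genes, nearly all in Sox5os1. No source used here says that counting kept the strands separate, and reads of the antisense RNA over this stretch cannot be told apart from those of Sox5.

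Fezf2, the zinc finger factor of layer V subcerebral neurons, lies on the minus strand of chromosome 14 (12342094 to 12348189). It had 162.6 CPM in KO2 and 163.8 in KO4, whereas WT6 had 223.8 and WT8 had 158.1. WT6 stood apart and the other 3 libraries lay between 158.1 and 163.8 CPM. The mean was 163.2 ± 0.847 CPM in KO and 190.9 ± 46.5 CPM in WT. Its log2 fold change was -0.23 with an interval from -0.60 to 0.15 (edgeR adjusted p = 0.743). Fezf2 was the only one of the 9 whose call depended on a library: without WT8, which leaves WT6 as the single wild-type library, it was called lower in KO at -0.45 (edgeR adjusted p = 0.00935), and without WT6 it stood at 0.04 (adjusted p = 0.733). Over all alternatives its adjusted p ranged from 0.00935 to 1.

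Bcl11b, the zinc finger factor downstream of Fezf2, lies on the minus strand of chromosome 12 (107910403 to 108003602). It had 316.0 CPM in KO2 and 333.3 in KO4, whereas WT6 had 315.9 and WT8 had 280.0. KO2 and WT6 were level, and WT8 was the low library. The log2 fold change was 0.12 with an interval from -0.11 to 0.36 (edgeR adjusted p = 0.755). Its relative Bcl11a on chromosome 11 (plus strand, 24078056 to 24174123) was the steadiest of the 9 genes. It had 258.0 CPM in KO2 and 263.2 in KO4, whereas WT6 had 279.4 and WT8 had 261.1, and the whole range over 4 libraries was 0.12 on the log2 scale (log2 fold change -0.05, edgeR adjusted p = 0.873).

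The NFI genes lie on chromosome 4, Nfib on the minus strand (82290173 to 82705750) and Nfia on the plus strand (97772734 to 98118874). Nfib was the most abundant of the 9 in CPM, ranked 114 of all genes tested, with 767.9 CPM in KO2 and 744.8 in KO4, whereas WT6 had 911.0 and WT8 had 653.2. WT6 was the top and WT8 the bottom library, and the KO libraries differed by only 0.04 on the log2 scale. The Nfib mean was 756.4 ± 16.4 CPM in KO and 782.1 ± 182.3 CPM in WT (log2 fold change -0.05, edgeR adjusted p = 0.939). Nfia had 251.9 CPM in KO2 and 237.1 in KO4, whereas WT6 had 288.9 and WT8 had 249.7. Here too WT6 was highest, but KO4, not WT8, was lowest. The Nfia log2 fold change was -0.14 with an interval from -0.38 to 0.10 (edgeR adjusted p = 0.747).

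The POU genes are single-exon genes, Pou3f2 on the minus strand of chromosome 4 (22482780 to 22488366) and Pou3f3 on the plus strand of chromosome 1 (42695768 to 42703176). Pou3f3 had 431.0 CPM in KO2 and 454.7 in KO4, whereas WT6 had 424.2 and WT8 had 367.5. The KO values were both above the WT values, KO2 only just, and the log2 fold change was 0.16 with an interval from -0.08 to 0.41 (edgeR adjusted p = 0.743). Pou3f2 had 93.3 CPM in KO2 and 96.1 in KO4, whereas WT6 had 94.7 and WT8 had 81.5. For both genes WT8 was low and the other 3 libraries were close together. The Pou3f2 log2 fold change was 0.10 with an interval from -0.13 to 0.34 (edgeR adjusted p = 0.779).

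Across the 9 genes, KO libraries lay wholly above WT libraries for 2 (Pou3f3, and Bcl11b by 316.0 CPM in KO2 against 315.9 in WT6) and wholly below for 0, where 20.1% and 19.4% of all tested genes did so. With 2 libraries against 2, an exact permutation test of a single gene cannot go below a two-sided p of 0.333. No 95% interval of the 9 reached below -0.60 or above 0.47 on the log2 scale.

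**Figure D2:**
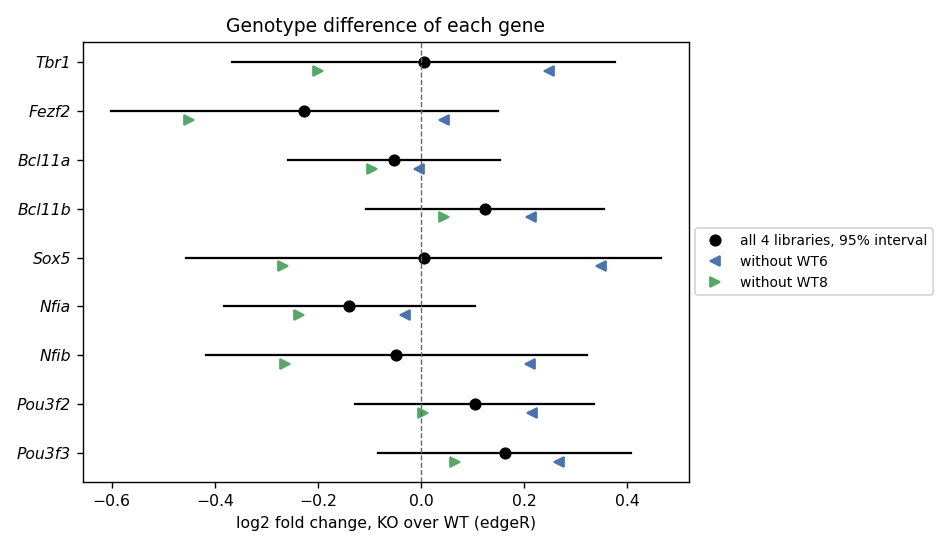
Log2 fold change of KO over WT for each gene from edgeR on all 4 libraries with its 95% interval (black), and the value without WT6 (blue) or without WT8 (green). All 9 intervals span 0, and for Tbr1, Fezf2, Sox5 and Nfib the value lies on opposite sides of 0 depending on which WT library is left out.

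The tables as deposited hold the 2 pairs separately, and 6 of the 9 factors had opposite signs in them. Nfia was below 0 in both and Bcl11b and Pou3f3 above 0 in both. In the authors' deposited table of KO2 over WT6, 6 of the 9 were lower at an adjusted p under 0.05 (Tbr1, Fezf2, Sox5, Nfib, Nfia and Bcl11a) and 0 were higher, where 8.67% of the genes in that table were lower and 8.58% higher. In the authors' deposited table of KO4 over WT8, 8 of the 9 were higher (all but Nfia) and 0 lower, where 23.8% of the genes were higher and 15.2% lower. Fezf2 had a log2 fold change of -0.45 in the authors' deposited table for the first pair (adjusted p = 2.00e-35) and 0.12 for the second (adjusted p = 0.00661). For Sox5 the authors' deposited tables give -0.37 (adjusted p = 9.05e-18) and 0.51 (adjusted p = 2.38e-29), and for Tbr1 they give -0.29 (adjusted p = 3.54e-25) and 0.40 (adjusted p = 6.47e-44). Those p-values compare the reads of 2 libraries and not the genotypes. None of the 9 carries the authors' mark of significance, but few genes do, 1.86% for the first pair and 5.05% for the second.

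Rescaled with TMM, the median log2 ratio over the 9 genes was -0.20 in the first pair (KO2 over WT6) and 0.24 in the second (KO4 over WT8), where the medians over all tested genes were 0.00 and 0.01. Lower in KO2 than in WT6 and higher in KO4 than in WT8 were 6 of the 9 genes and 25.3% of all tested genes. The KO libraries were closer to each other than the WT libraries were for all 9 genes: ratios of KO2 over KO4 had a median size of 0.08 on the log2 scale, and ratios of WT6 over WT8 had one of 0.22. Over all tested genes these sizes were 0.12 and 0.19. Over tested genes with a mean of at least 50 CPM they were 0.08 and 0.13. WT6 was the highest and WT8 the lowest library for Tbr1, Fezf2, Sox5 and Nfib, that is 4 of the 9, where 10.5% of all tested genes had this order.

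**Figure D3:**
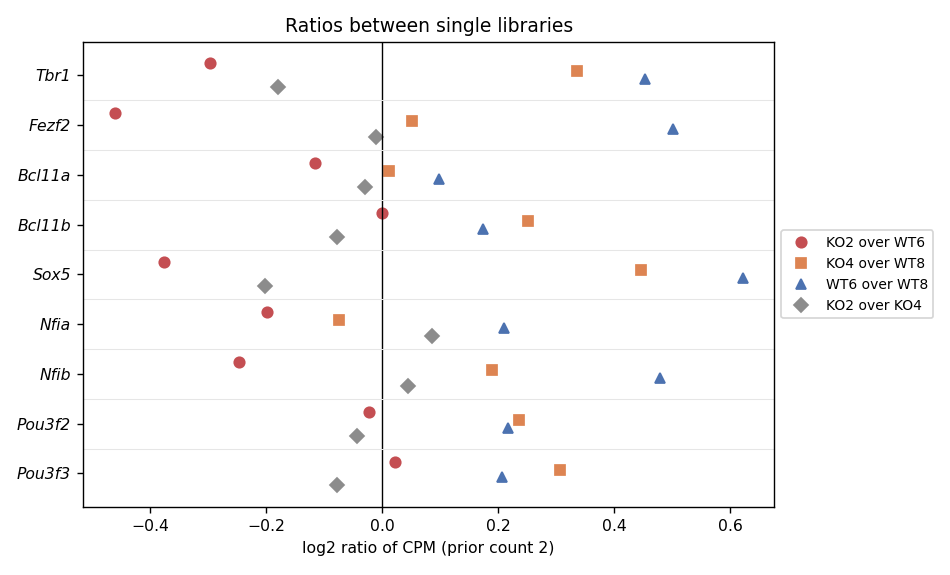
Log2 ratios of CPM (prior count 2) between single libraries for each gene: KO2 over WT6 (red circles), KO4 over WT8 (orange squares), WT6 over WT8 (blue triangles) and KO2 over KO4 (grey diamonds). All 9 blue triangles lie right of 0, from 0.10 for Bcl11a to 0.62 for Sox5, and 7 of 9 red circles lie left of 0 while 8 of 9 orange squares lie right of it.

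Among themselves, the 9 genes fell into sets by the shape of their values over the 4 libraries, a description over 4 points that was made after the values were seen. Bcl11b, Pou3f2 and Pou3f3 were the most alike, with root mean square distances between their centred log2 CPM of 0.02 for Bcl11b with Pou3f2, 0.02 for Bcl11b with Pou3f3 and 0.03 for Pou3f2 with Pou3f3. Tbr1 and Sox5 came next at 0.06, then Bcl11a and Nfia at 0.07. Fezf2 and Pou3f3 were the least alike at 0.21. The first set was low in WT8 alone, and Tbr1 and Sox5 were high in WT6 and low in WT8.

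The windows around the RefSeq start of the most alike set and of Tbr1 (250 bases before to 50 after, GRCm38.p6, 5′ to 3′ on the gene's strand) are printed to show what the promoters of genes with like values hold. Windows were found for 8 of the 9 genes. Capitals mark matches, on either strand, to letters known from the binding sites of these families and to the TATA box. The letters searched were ATGCAAAT for POU, GGTGTGA for T-box, ACAAAG for SOX, TTGGCA for NFI and TATAAA for the TATA box. The window of Pou3f2 is chr4:22488317-22488616 (minus strand), that of Pou3f3 chr1:42695518-42695817 (plus strand), that of Bcl11b chr12:108003365-108003664 (minus strand) and that of Tbr1 chr2:61804203-61804502 (plus strand).
Pou3f2: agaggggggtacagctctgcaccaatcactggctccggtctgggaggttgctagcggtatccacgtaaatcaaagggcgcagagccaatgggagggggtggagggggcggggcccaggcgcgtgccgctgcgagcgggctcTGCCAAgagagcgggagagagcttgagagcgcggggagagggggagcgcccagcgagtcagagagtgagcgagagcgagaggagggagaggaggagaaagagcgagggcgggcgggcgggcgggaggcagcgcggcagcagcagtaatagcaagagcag
Pou3f3: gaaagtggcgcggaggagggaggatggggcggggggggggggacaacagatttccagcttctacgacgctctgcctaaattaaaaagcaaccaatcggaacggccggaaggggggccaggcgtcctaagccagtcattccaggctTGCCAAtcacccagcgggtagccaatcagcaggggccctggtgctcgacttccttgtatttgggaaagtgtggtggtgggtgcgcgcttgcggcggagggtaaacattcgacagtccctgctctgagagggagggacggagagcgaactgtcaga
Bcl11b: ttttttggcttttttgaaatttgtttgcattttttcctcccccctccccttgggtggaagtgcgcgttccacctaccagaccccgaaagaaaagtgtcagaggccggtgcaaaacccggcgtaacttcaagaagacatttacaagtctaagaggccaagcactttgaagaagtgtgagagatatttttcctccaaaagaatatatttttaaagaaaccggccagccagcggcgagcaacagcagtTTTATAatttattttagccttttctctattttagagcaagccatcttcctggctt
Tbr1: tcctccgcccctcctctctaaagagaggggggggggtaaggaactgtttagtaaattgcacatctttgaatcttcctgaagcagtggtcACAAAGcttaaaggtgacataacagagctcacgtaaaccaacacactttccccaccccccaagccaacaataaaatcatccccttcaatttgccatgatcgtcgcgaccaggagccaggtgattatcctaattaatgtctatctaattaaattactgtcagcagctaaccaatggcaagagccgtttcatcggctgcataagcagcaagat

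The windows of Pou3f2 and Pou3f3 each hold the NFI letters once, as TGCCAA, which 14.1% of 32817 windows hold on either strand, and so does that of Sox5. The Bcl11b window differs from them in holding the TATA box letters, present in 13.6% of windows, and the Tbr1 window holds the SOX letters, present in 18.7%. The T-box letters (3.98% of windows) occur only in the Bcl11a window among the 8, and the POU octamer (1.74%) in none of them. Pou3f2 with 24 CpG and Pou3f3 with 18 are rich in CpG, whereas Bcl11b has 9 and Tbr1 has 7, the median of all windows. Base composition thus varied within the set of like values. The RefSeq start of Tbr1 lies 1523 bases inside the gene as the tables place it and that of Bcl11b 188 bases, while those of the POU genes are at the gene's edge. Those of Fezf2 and Bcl11a lie 2324 and 2639 bases inside. The start used for Sox5 lies 834871 bases inside the gene and that for Nfia 190791 bases outside it. The Sox5 and Nfia windows are therefore far from the start of the gene that was counted. A match of letters is a description and not evidence of binding.

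Per length, the order of the 9 genes separated a leading set from the others. Tbr1 had 58.7 CPM per kilobase of exon over the 4 libraries (SD 8.05), Fezf2 had 58.1 (SD 10.3), Pou3f3 had 56.6 (SD 4.98) and Nfib had 51.4 (SD 7.13). The ranges of these 4 overlapped from each gene to the next, so their order is not resolved. Bcl11b at 38.4, Nfia at 23.6, Bcl11a at 20.1, Pou3f2 at 16.4 and Sox5 at 9.46 CPM per kilobase followed, and no range overlapped that of its neighbour. Nfib leads in CPM and Tbr1 per kilobase because Nfib has 14957 bases of merged exons and Tbr1 has 5486. Merged exons of all annotated transcripts overstate the length of genes with many isoforms, such as Sox5 with 14 annotated transcripts, so their level per kilobase is a lower estimate.

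Ratios of counts within a library compare factors at the same depth. Such ratios can still vary with the mix of cells, and that part was not tested. The Fezf2 to Tbr1 count ratio was 0.537 in KO2 and 0.478 in KO4, whereas WT6 had 0.602 and WT8 had 0.582. It was lower in both KO libraries, by 0.23 on the log2 scale on average. Even so, the 95% counting intervals of KO2 (-0.96 to -0.83 on the log2 scale) and WT8 (-0.85 to -0.71) overlapped. For KO over WT, Fezf2 alone stood at -0.23 and Tbr1 at 0.005, with neither called. The libraries are of brain and separate no layers, so this ratio does not measure layer V against layer VI. The Bcl11b to Bcl11a ratio was 1.23 in KO2 and 1.27 in KO4, whereas WT6 had 1.13 and WT8 had 1.07, higher in both KO libraries by 0.18 on the log2 scale. The Pou3f3 to Pou3f2 ratio was 4.62 in KO2 and 4.73 in KO4, whereas WT6 had 4.48 and WT8 had 4.51. The Pou3f3 to Pou3f2 difference was small, 0.06 on the log2 scale, and the 95% counting intervals of all 4 libraries overlapped, whereas those of the Bcl11b to Bcl11a ratio did not overlap between the genotypes. In these 3 of the 5 ratios the genotypes did not overlap. Among single genes, 20.1% had both KO libraries above both WT libraries and a further 19.4% had them below. No such share was computed over ratios of gene pairs. The ratios were not tested.

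The other ratios overlapped between the genotypes. Bcl11b to Tbr1 stood at 1.04 in KO2 and 0.972 in KO4, whereas WT6 had 0.850 and WT8 had 1.03, and WT6, the library richest in Tbr1, was the low value. Nfib to Nfia stood at 3.05 in KO2 and 3.14 in KO4, whereas WT6 had 3.15 and WT8 had 2.62. The low value of WT8 shows that Nfib was lower there relative to Nfia than in the other 3 libraries.

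Other genes of the layer programme were not called either, and many ran the same way over the libraries. The lists are named for known roles, and brain RNA does not show which cells or layers held these transcripts. Among all 15708 tested genes, 7675 stood above 0, WT6 was highest for 23% and WT8 lowest for 34%. Of 9 upper-layer factors, 0 passed the edgeR test (0 at an unadjusted p under 0.05), 6 stood above 0 with a median log2 fold change of 0.02, and WT6 was the highest library for 7 and WT8 the lowest for 5. Those with the smallest p were Lhx2, a LIM homeobox gene of cortical progenitors, at -0.24, the Groucho corepressor gene Tle3 at -0.18 and the LIM-only gene Lmo4 at 0.08.

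Of 15 deep-layer and subplate factors, 0 passed and 12 stood above 0, with a median of 0.14 and 3 at an unadjusted p under 0.05. Among all 15708 tested genes, 7675 stood above 0 and 738 had an unadjusted p under 0.05. Etv1, an ETS factor of layer V neurons, had 30.6 CPM in KO2 and 30.1 in KO4, whereas WT6 had 21 and WT8 had 23.1, a log2 fold change of 0.46 (edgeR adjusted p = 0.743). Tle4, a corepressor gene of layer VI, had 54.7 CPM in KO2 and 48.9 in KO4, whereas WT6 had 42.2 and WT8 had 44.9, at 0.25. Foxp2, a forkhead factor of layer VI and of striatum, stood at 0.41. Each of these 3, named for having the smallest p of the list, had both KO libraries above both WT libraries and WT6 below WT8. Over the list, 4 of the 15 had WT6 below WT8, WT8 was the lowest library for 11 and WT6 the highest for 6. Over all tested genes, WT8 was lowest for 34% and WT6 highest for 23%.

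The family relatives of the 9 gave 0 of 8 called, 2 at an unadjusted p under 0.05 and a median of -0.05. The POU gene Pou3f4, a marker of ventral forebrain among other sites, had 23.0 CPM in KO2 and 26.3 in KO4, whereas WT6 had 19.4 and WT8 had 15.3, at 0.50 on the log2 scale (edgeR adjusted p = 0.743). The SoxD gene Sox13 stood at -0.39 and the NFI gene Nfix at -0.29. Eomes (TBR2), the T-box gene of intermediate progenitors, had WT6 over WT8 at 0.68, above the 0.45 of Tbr1. The relatives did not share this direction: 4 of the 8 were lower in WT6 than in WT8, Fezf1 at -0.69. Their median of WT6 over WT8 was -0.01.

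Of 16 genes known from the literature as targets of these factors, 0 passed and 0 had an unadjusted p under 0.05, with 7 above 0 and a median of -0.05. Nes, the intermediate filament gene of neural progenitors with a POU-bound enhancer, stood at -0.17, Sox9, a progenitor factor linked to NFI, at -0.14 and Ephb1, an ephrin receptor gene under Fezf2, at -0.16. The reported Tbr1 targets Auts2, Reln and Grin2b stood at 0.11, -0.11 and 0.06.

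The summed levels of markers of cortical and of ventral forebrain neurons differed between WT6 and WT8 in opposite directions. Of 9 genes of cortical excitatory neurons, 0 passed, and their summed level was 2007 CPM in KO2 and 2137 in KO4, whereas WT6 had 2749 and WT8 had 1890. WT6 was the highest library for 7 of these 9, against 23% of all tested genes. A log2 fold change of KO over WT above 0 was held by 1 of the 9 (median -0.11). Emx1, a homeobox gene of the dorsal forebrain, had the smallest p of them and no gap between the WT libraries: 145.5 CPM in KO2 and 137.3 in KO4, whereas WT6 had 194.3 and WT8 had 197.3, a log2 fold change of -0.47 (edgeR unadjusted p = 0.000902, adjusted p = 0.743). Genes of ventral forebrain and GABAergic neurons ran the other way: all 12 were lower in WT6 than in WT8, 0 passed, and the sum was 1264 CPM in KO2 and 1191 in KO4, whereas WT6 had 745.0 and WT8 had 1329. The log2 fold change of KO over WT was above 0 for all 12, with a median of 0.31. Among all 15708 tested genes, 7675 stood above 0 and 7655 were lower in WT6 than in WT8. The 2 deposited pairs did not share this direction. Measured against WT6, KO2 had a median log2 ratio of 0.80 over the 12 genes. Measured against WT8, KO4 had one of -0.17. The cortical excitatory list also changed sign between the pairs, with medians of -0.35 in the first and 0.23 in the second. Nkx2-1, which defines the medial ganglionic eminence, had WT6 over WT8 at -2.80 on the log2 scale. The summed level of genes of neurons of any region was 5800 to 6345 CPM over the 4 libraries and that of radial glia genes 1223 to 1305 CPM, sums in which Tubb3 and Vim hold the largest part. Single genes of these lists differed more, with WT6 over WT8 at -0.64 on the log2 scale for Nefl, -0.82 for Hes5 and 0.58 for Notch1. The part of these cell types in the values of the 9 factors was not tested.

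Transcripts of cells from outside the neural tissue also differed in level between libraries. Erythroid genes summed to 565.7 CPM in KO2 and 567.2 in KO4, whereas WT6 had 431.7 and WT8 had 978.7, with 5 of 6 lower in WT6 than in WT8. Microglial genes summed to 34.0 CPM in KO2 and 32.0 in KO4, whereas WT6 had 36.0 and WT8 had 42.2, with WT8 the highest library. WT8 was also highest for endothelial genes (183.2 to 193.7 CPM in KO, whereas WT6 had 193.6 and WT8 had 221.4) and meningeal genes (11.5 to 12.4 CPM in KO, whereas WT6 had 10.6 and WT8 had 15.2). Of the choroid plexus markers only Ttr could be tested, with 6 and 11 reads in KO2 and KO4, against 53 in WT6 and 4 in WT8. Replication-dependent histones, whose transcripts lack a poly(A) tail, had a median deviation of -0.77 in KO2 and 0.63 in KO4, whereas WT6 had -0.37 and WT8 had 0.82. Of the 7 tested, all were lower in WT6 than in WT8, and 6 had at most 42 reads in any library, so the median rests on low counts. The abundant one, Hist1h4i, had 22.3 CPM in KO2 and 23.4 in KO4, whereas WT6 had 25.1 and WT8 had 32.0. In none of these lists did a gene pass the edgeR test, and their part in the results was not tested.

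**Figure D4:**
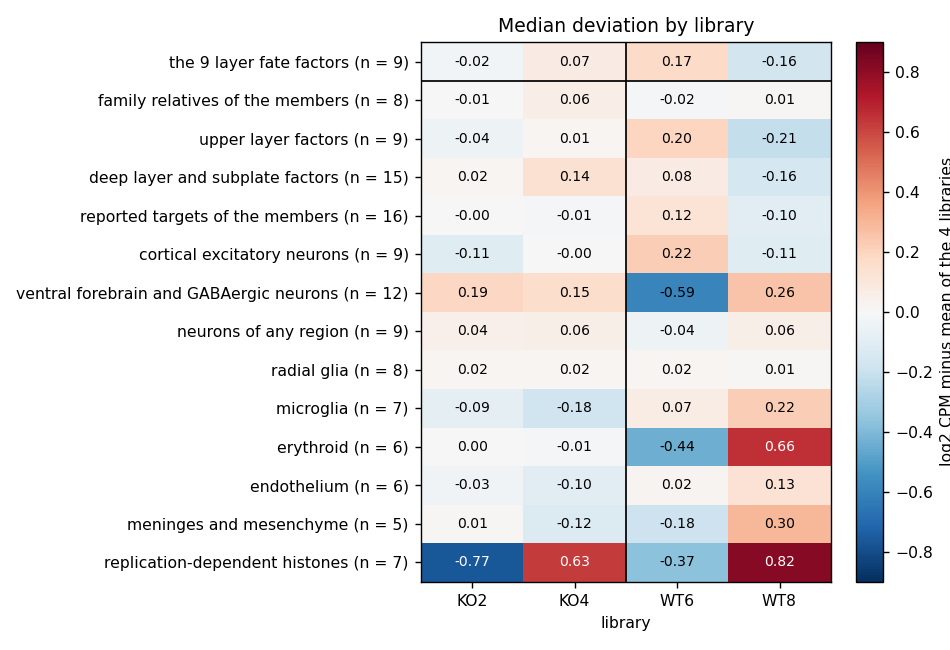
Median deviation of log2 CPM from the mean of the 4 libraries, for the 9 layer fate factors (top row) and for lists with at least 5 tested genes, in KO2, KO4, WT6 and WT8 (columns; red above and blue below the mean, number of genes in brackets). The 9 factors have 0.17 in WT6 and -0.16 in WT8, where cortical excitatory neuron genes have 0.22 and -0.11 and ventral forebrain genes have -0.59 and 0.26.

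RNA genes beside the 9 factors did not all follow them. Gm11266, an antisense RNA gene inside Nfib without exon overlap, had 38.6 CPM in KO2 and 37.6 in KO4, whereas WT6 had 45.2 and WT8 had 29.7, the same order of libraries as Nfib. With no statement on strand, unspliced Nfib RNA over this stretch cannot be told apart from it. Gm12063, 689 bases from Bcl11a, had 6.06 CPM in KO2 and 7.1 in KO4, whereas WT6 had 8.66 and WT8 had 6.07. Pantr1, the noncoding RNA gene that starts opposite to Pou3f3 at a distance of 926 bases, had 138.6 CPM in KO2 and 130.0 in KO4, whereas WT6 had 144.2 and WT8 had 168.6. For Pantr1 WT8 was the highest library, whereas it was the lowest for Pou3f3, and the Pantr1 log2 fold change was -0.22 (edgeR adjusted p = 0.743).

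The others were scarcer or flatter. Pantr2 had 26.7 CPM in KO2 and 29.5 in KO4, whereas WT6 had 29.6 and WT8 had 28.5. Gm30731 beside Pou3f2 had 44 and 59 reads in the KO libraries, against 47 and 37 in the WT libraries, and Gm20646, which overlaps Pou3f3 on the same strand, had 48 and 50, against 62 and 51. The antisense gene 4930538E20Rik, which covers 316 bases of Bcl11a exons, had 3 to 8 reads per library, and the genes Gm44068 in Sox5 and Gm11267 in Nfib had 1 to 7, too few to be tested. None of the RNA genes tested was called.

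The genes whose values were most like the median of the 9 were Srrm4, a neural splicing regulator gene, Itsn1, Ulk3, Uxs1 and Ankrd52. Their root mean square distance to it was 0.0160 to 0.0181 on the log2 scale over 4 libraries, among 10046 other genes with a mean of at least 10 CPM. Srrm4 had 130.8 CPM in KO2 and 140.1 in KO4, whereas WT6 had 150.7 and WT8 had 118.5. The nearest of the 9 factors, Tbr1, was at a distance of 0.0528, and 355 of those other genes (3.53%) were nearer than it. The farthest, Fezf2, was at 0.1314, and 40.3% were nearer than that.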

How the data were processed

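RNA of E13.5 brains was extracted with Trizol and sequenced, per the labels' protocols. Per the submitters' processing notes the tools were HTSeq 0.6.0, TopHat2 2.0.12 and Bowtie2 2.2.3 and the build mm9, yet 91.2% of the genes in both tables, and all 9 factors, have the position of GENCODE M21 on GRCm38. The authors deposited whole-number read counts per gene, not normalized, per the file headers and values. The deposited tables also hold, per the file headers, a CPM, the KO to WT ratio (fold change), its log2 and a p-value with its adjusted form for each gene. The sources used here do not give the test behind that p-value.

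Counts were joined by gene identifier and fitted in R 4.3.3 with edgeR 4.0.16 (quasi-likelihood F-test, genotype as the only term, TMM, filterByExpr, Benjamini-Hochberg over all 15708 tested genes, threshold 0.05). All CPM values in the text, apart from the deposited ones, carry TMM factors of 0.971 to 1.01. The SE is the log2 fold change over the root of F. Ratios of single libraries use log2 CPM with a prior count of 2. Levels per kilobase use merged GENCODE exons. Counting intervals are at 95% and, like p-values over these libraries, whose litters are not given, cover no more than counting error or the spread between these samples. Alternatives were other scalings and filters, DESeq2 1.42.0, limma-voom (limma 3.58.1), the deposited pair as a block, a prior count of 0.5 and leaving out each library. The number of each library is its own in the labels and pairs no samples.

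The genes described are the 9 factors, H2afy and H2afy2, of each list of related genes the 3 with the smallest p, of marker lists the 2 most abundant where a value is given singly, neighbours within 20 kb, and the 5 genes nearest to the median pattern. Eomes, Auts2, Reln, Grin2b, Nkx2-1, Emx1, Nefl, Hes5 and Notch1 were named after their values were seen. Members and lists were chosen with earlier results of these data known.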

Additional observations from a re-analysis of the deposited data

How the results depend on the processing

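Of 99 values of the 9 genes under alternatives, 90 kept their direction and their side of the threshold. With DESeq2, Sox5 stood at -8.42e-05 and Tbr1 at -0.000234, next to 0 as before. Leaving out 1 library at a time, Tbr1 ranged from -0.2 to 0.248, Sox5 from -0.268 to 0.348, Nfib from -0.264 to 0.21 and Fezf2 from -0.451 to 0.0446. The median over the 9 then ranged from -0.2 without WT8 to 0.212 without WT6, and the count of them called from 0 to 1 (Fezf2 without WT8). Among all genes, the count called higher in KO was 2 with DESeq2 and ranged from 0 to 67 over left-out libraries. The count called lower was 2 with DESeq2, 2 with total counts alone, 2 with a term for the deposited pair, and 0 to 37 over left-out libraries, with 37 without WT8 and 0 without WT6. A fit without a library has 1 library of a genotype, which is assumed to vary like the other genotype. The prior count of 0.5 did not move the pair medians. No paired analysis by replicate number was possible because the library numbers of the genotypes differ. Each of the 9 genes had at least 1301 reads in every library, and how far depth, the number of libraries and the spread within a genotype each limit these comparisons was not tested.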
